A study of Homo sapiens with 3 samples.

Results

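Claudins and the proteins that sit with them in the tight junction were examined in Caki-1 cells in which RBCK1 was silenced. The set held 9 genes, *CLDN1*, *CLDN4*, *CLDN7*, *CLDN12*, *OCLN*, *TJP1*, *F11R*, *MARVELD2* and *CGN*, out of 44591 genes in the table. These genes were chosen by family with their differences between the silenced and control libraries already known. Their values were therefore read as descriptions. Caki-1 is an established human line of clear cell renal carcinoma. RBCK1, also named HOIL-1, is a subunit of the linear ubiquitin chain assembly complex. The cells received si-Control, si-HOIL-1#1 or si-HOIL-1#2, where si-Control is the non-silencing siRNA and the others are siRNAs directed at RBCK1. The siRNAs were used at 10 nmol/L, and RNA was taken 48 h after transfection. Each condition was 1 library of 1 cell line, so no difference had a replicate check and no test was made. Both siRNAs were read against the same si-Control library, which ties the 2 comparisons to each other.

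Tight junctions seal the space between neighbouring epithelial cells near their apical side. Claudins are membrane proteins with 4 passes that polymerise into the strands of the junction, and each claudin makes the seal tighter or more permeable to particular ions. Occludin and tricellulin belong to the MARVEL family and sit in the same strands, JAM-A is an immunoglobulin-like adhesion protein at the junction, and ZO-1 and cingulin link the strands to actin. In the kidney, the claudins present in a tubule segment set what passes between its cells.

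Levels are given in RPKM, read numbers scaled to gene length and library size, which allows genes of unequal length to be compared. Ratios are log2 of (RPKM + 1) against si-Control, a scale that compresses the ratios of weakly expressed genes. A gene was compared when its 3 libraries averaged 1 RPKM or more, which left 12403 genes and 7 of the 9 tight junction genes. *CLDN7* and *CGN* were below this limit. The read numbers behind the RPKM values were recovered from the table, and percentages of control with exact 95% intervals were calculated from those reads. The intervals cover counting error only. The smallest whole reads that fit a gene's 3 values were taken. True reads could be a multiple of them, and the intervals would then be narrower. The recovered library totals were 36926834 reads for si-Control, 40442939 for si-HOIL-1#1 and 36344428 for si-HOIL-1#2. The targeted gene *RBCK1* was at 33.3 RPKM in si-Control, 9.97 RPKM with si-HOIL-1#1 and 12.3 RPKM with si-HOIL-1#2. Both silenced libraries were thus low for the target, at 29.9% (28.3 to 31.6) and 36.8% (34.9 to 38.8) of control.

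The renal epithelial label was checked against marker genes. *PAX8*, a transcription factor of the renal epithelium, was present at 124, 82.5 and 107 RPKM in the si-Control, si-HOIL-1#1 and si-HOIL-1#2 libraries. *CA9*, a usual marker of clear cell tumours, and *PAX2* were at or near 0 in all 3 libraries. Of a list of 8 markers of kidney epithelium or clear cell carcinoma, 4 passed the expression limit. *KRT19* and *EPCAM* were under it as well. None of 4 endothelial and none of 4 fibroblast markers passed it, with summed levels of 0.0522 to 0.0635 and of 0.813 to 1.04 RPKM. Of 4 leukocyte markers *CD68* alone passed, at 41.8, 51.0 and 52.3 RPKM. Among the 4 compared markers of kidney epithelium or clear cell carcinoma, 2 were at least 2-fold higher with each siRNA, beside 1.46% of all compared genes. These were *KRT8*, at 65.6, 172 and 238 RPKM, and *VIM*, at 664, 1512 and 1392 RPKM. Their part in the results was not tested.

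The sense strands of the silencing siRNAs, as listed among the study's oligonucleotides, are shown because a short stretch of an siRNA can pair with transcripts other than its target. Capitals mark positions 12 to 18 from the 5′ end, the letters that a transcript must hold to pair with guide positions 2 to 8.
si-HOIL-1#1: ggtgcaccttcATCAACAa
si-HOIL-1#2: ggattaccagcGATTTCTa
In the longest protein-coding transcript of each gene, the capital letters of si-HOIL-1#1 were found in 3 of the 9 tight junction genes (*OCLN*, *MARVELD2* and *CGN*). Those of si-HOIL-1#2 were found in 4 (*CLDN12*, *TJP1*, *F11R* and *MARVELD2*). Over the 10568 compared genes with such a transcript the shares were 23.8% and 29.2%. The transcripts of *CLDN1* and *CLDN11* held neither stretch. A match is a description of letters, and pairing was not tested. Both full strands were found in the *RBCK1* transcript.

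*CLDN1*, which encodes claudin-1, a sealing claudin, dominated the set and was lower with both siRNAs. On the hg19 build the gene lies on the minus strand at chr3:190023490-190040235. Its level was 762 RPKM in si-Control, 310.1 RPKM with si-HOIL-1#1 and 246 RPKM with si-HOIL-1#2. The si-Control library was the highest and the si-HOIL-1#2 library the lowest. The log2 ratios were -1.29 and -1.63. On 97094, 43292 and 30815 reads, *CLDN1* was at 40.7% (40.3 to 41.2) of control with si-HOIL-1#1 and at 32.2% (31.8 to 32.7) with si-HOIL-1#2. Between the silenced libraries, si-HOIL-1#2 was at 79.2% (78.1 to 80.4) of si-HOIL-1#1, so the order of all 3 libraries lay beyond counting error. In bulk RNA, fewer cells that express a gene and less RNA per cell cannot be told apart.

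*CLDN1* was also among the most abundant transcripts of these cells. Per length it ranked 65th of 19233 protein-coding genes in si-Control, 173rd with si-HOIL-1#1 and 195th with si-HOIL-1#2. Ordered by the smaller of their falls, *CLDN1* was 49th of the 10775 protein-coding genes compared. In the smaller set of 5548 protein-coding genes that averaged 10 RPKM or more, the pair of ratios closest to that of *CLDN1* belonged to *GADD45A*, at a distance of 0.0570 on the log2 scale over the 2 comparisons. *GADD45A* was at 369, 156 and 119 RPKM in si-Control, si-HOIL-1#1 and si-HOIL-1#2. It was followed by *ASNS*, at a distance of 0.131, and *DLG1*, at a distance of 0.144.

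**Figure D1:**
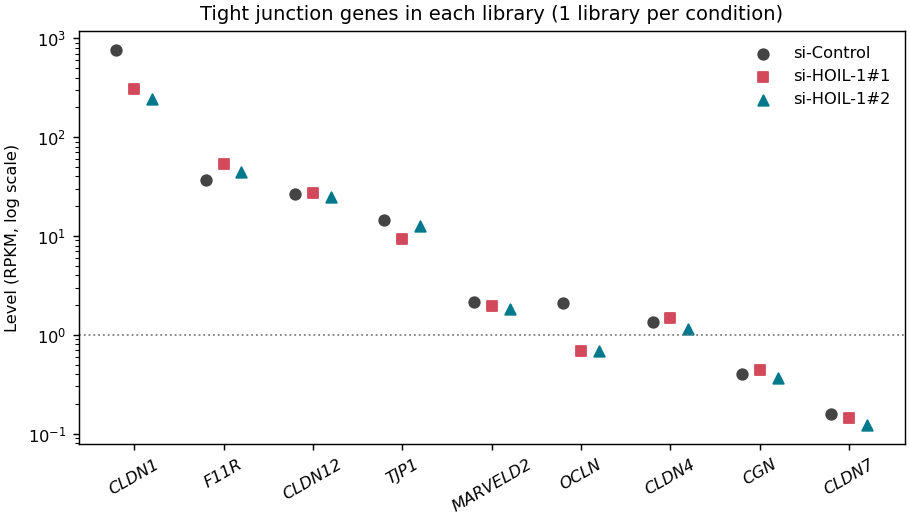
RPKM of the 9 tight junction genes on a log10 axis, with 1 point for each of the 3 libraries (si-Control, si-HOIL-1#1, si-HOIL-1#2). *CLDN1* stands highest and separates by library from 762 to 246 RPKM, and *CLDN7* and *CGN* lie below 1 RPKM.

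The remaining claudins of the set differed much less between the libraries. *CLDN12*, an atypical claudin that lacks the usual binding motif for scaffold proteins, lies at chr7:90032648-90045268 on the plus strand. It was at 26.8 RPKM in si-Control, 27.2 with si-HOIL-1#1 and 24.5 with si-HOIL-1#2. The 3 levels lay close together, at 102% (97.2 to 106) and 91.5% (87.2 to 95.9) of control. Its log2 ratios were 0.02 and -0.12. A transcript with the identifier ENSG00000273299.1 overlaps *CLDN12* on the same strand and was at 1.24, 0.133 and 0.0742 RPKM.

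*CLDN4*, a claudin of the collecting duct that limits sodium passage, lies at chr7:73245193-73247023 on the plus strand. It was at 1.36 RPKM in si-Control, 1.47 with si-HOIL-1#1 and 1.16 with si-HOIL-1#2, from 92, 109 and 77 reads. The intervals around 108% (81.2 to 144) and 85.0% (62.0 to 116) of control both held equality, so no difference was detectable at this depth. *CLDN7*, a claudin of the distal nephron, lies at chr17:7163222-7166512 on the minus strand. It was at 0.159, 0.145 and 0.121 RPKM, from 12, 12 and 9 reads. Its values were too low to compare, with 91.3% (37.5 to 222) and 76.2% (28.4 to 197) of control. *ELP5* overlaps it on the opposite strand at 13.5, 17.9 and 15.5 RPKM, and the strand setting of the counting was not given in the sources used here.

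*OCLN*, which encodes occludin, was, with *CLDN1*, 1 of 2 genes of the set at least 1.5-fold lower with both siRNAs, at a far lower level than *CLDN1*. The gene lies at chr5:68788119-68853931 on the plus strand. Its level was 2.11 RPKM in si-Control, 0.688 with si-HOIL-1#1 and 0.686 with si-HOIL-1#2. The average of 1.16 RPKM passed the expression limit only through si-Control, as both silenced libraries were under 1 RPKM. The silenced libraries had nearly the same value, below the control. On 512, 183 and 164 reads, *OCLN* was at 32.6% (27.4 to 38.7) and 32.5% (27.1 to 38.9) of control. The log2 ratios were -0.88 and -0.88 with 1 RPKM added, and the size of this difference depended on the amount added. With 0.1 RPKM added they were -1.49 and -1.49, with 5 RPKM added -0.32 and -0.32, and on reads alone -1.62 and -1.62. An occludin pseudogene, LOC647859, had 9, 2 and 12 reads. With those reads added to *OCLN* the log2 ratios of the reads were -1.62 and -1.54.

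*MARVELD2*, which encodes tricellulin, the MARVEL protein of the corners where 3 cells meet, lies 50228 bases from *OCLN* at chr5:68710939-68737890 on the plus strand. It was at 2.16 RPKM in si-Control, 1.97 with si-HOIL-1#1 and 1.81 with si-HOIL-1#2. In si-Control this was close to the level of *OCLN*, but *MARVELD2* was at 91.3% (66.9 to 125) and 83.9% (60.4 to 116) of control, and both intervals held equality. They rest on 86, 86 and 71 recovered reads over a recovered length of 1080 bases, while the longest *MARVELD2* transcript has 4376. The true reads may therefore be more, and narrower intervals may not hold equality. The intervals of *OCLN* lay below those of *MARVELD2* with either siRNA.

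*F11R*, which encodes JAM-A, was the single compared gene of the set with a positive ratio in both comparisons. It lies at chr1:160964996-160991133 on the minus strand. Its level was 36.8 RPKM in si-Control, 53.3 with si-HOIL-1#1 and 44.6 with si-HOIL-1#2. The si-Control library was the lowest and the si-HOIL-1#1 library the highest. The log2 ratios were 0.52 and 0.27, with 145% (140.4 to 149) and 121% (117 to 125) of control. Both ratios were under the 1.5-fold limit, which is 0.58 on the log2 scale.

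*TJP1*, which encodes the scaffold ZO-1, lies at chr15:29991571-30261002 on the minus strand. It was at 14.4 RPKM in si-Control, 9.40 with si-HOIL-1#1 and 12.5 with si-HOIL-1#2. Both silenced libraries were below the control, and they differed from each other. *TJP1* was at 65.2% (62.3 to 68.2) of control with si-HOIL-1#1 and at 87.0% (83.3 to 90.8) with si-HOIL-1#2, and si-HOIL-1#2 was at 133% (127 to 139.8) of si-HOIL-1#1. The log2 ratios were -0.57 and -0.19. *CGN*, which encodes cingulin, lies at chr1:151483862-151511168 on the plus strand and was at 0.403, 0.436 and 0.361 RPKM. It was thus barely expressed in all 3 libraries, and the intervals of 108% (78.8 to 149) and 89.6% (63.5 to 126) of control held equality.

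With 1 RPKM added, *CLDN1* was the single gene of the set at least 2-fold lower with each siRNA, while on reads alone or with 0.1 RPKM added *OCLN* was too. Of all compared genes 3.27% were at least 2-fold lower with si-HOIL-1#1, 2.27% with si-HOIL-1#2 and 1.41% with both. These shares are for ratios with 1 RPKM added. Shares on reads or with 0.1 RPKM added were not computed. None of the 9 was at least 2-fold higher with both siRNAs, against 1.46% of all genes compared. At 1.5-fold, *CLDN1* and *OCLN* were lower with both siRNAs, against 6.24% of all genes, and none was higher with both, against 7.47%. *OCLN* entered the compared genes only through its si-Control level. Of the 7 compared, 4 had negative ratios in both comparisons (*CLDN1*, *OCLN*, *TJP1* and *MARVELD2*), *F11R* had positive ones, and *CLDN4* and *CLDN12* had ratios of opposite sign. The median ratio of the 7 was -0.09 with si-HOIL-1#1 and -0.17 with si-HOIL-1#2, beside 0.02 and 0.03 over all genes compared. The set therefore did not move as 1 block.

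**Figure D2:**
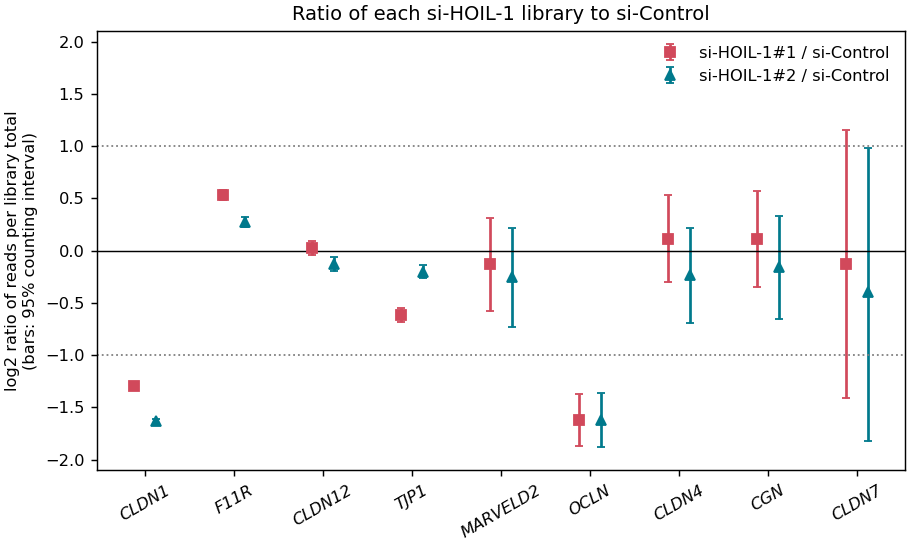
Log2 ratio of reads per library total against si-Control for the 9 tight junction genes, with 1 point per siRNA, bars for the 95% counting interval and dotted lines at the 2-fold limits. On this scale, with nothing added to the values, *CLDN1* (-1.30 and -1.63) and *OCLN* (-1.62 and -1.62) lie below the lower limit, and *F11R* lies above 0. The bars of *CLDN4*, *CLDN7*, *MARVELD2* and *CGN* cross 0 with both siRNAs, and that of *CLDN12* with si-HOIL-1#1 only.

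**Figure D3:**
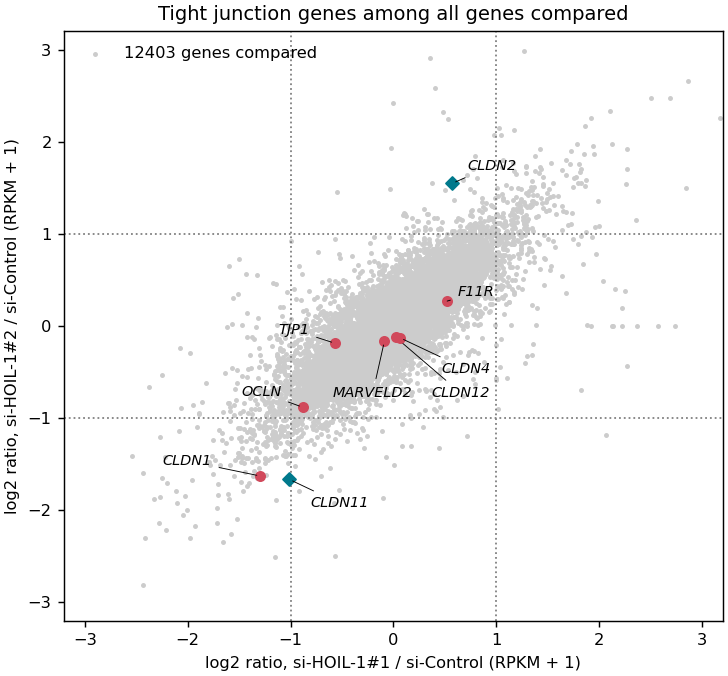
Log2 ratio of RPKM + 1 with si-HOIL-1#1 (x axis) against that with si-HOIL-1#2 (y axis) for the 12403 compared genes (grey), the 7 compared tight junction genes (red circles) and *CLDN11* and *CLDN2* (teal diamonds). Both axes use the same si-Control library, dotted lines mark the 2-fold limits, and 1 gene lies outside the axes.

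The claudin family as a whole had a lower summed level with both siRNAs, and this lay in its most abundant members. The table held 24 claudin genes, of which 7 were compared, 16 were under 1 RPKM in every library and 4 were listed at 0 in all 3. The summed level of the family was 1002 RPKM in si-Control, 447 with si-HOIL-1#1 and 348 with si-HOIL-1#2. The silenced sums were 44.6% and 34.7% of the control sum. *CLDN1* made up 76.0% of the sum in si-Control, 69.4% with si-HOIL-1#1 and 70.5% with si-HOIL-1#2. *CLDN11*, which forms the strands of myelin and Sertoli cells, made up 20.2%, 22.4% and 18.2%. Without these 2 genes the sum was 37.6, 36.6 and 39.3 RPKM, or 97.4% and 105% of control.

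*CLDN11* was the other compared claudin at least 2-fold lower with both siRNAs. It was at 203 RPKM in si-Control, 100.1 with si-HOIL-1#1 and 63.2 with si-HOIL-1#2. The order of the libraries was that of *CLDN1*, with 49.3% (48.2 to 50.5) and 31.2% (30.3 to 32.1) of control and log2 ratios of -1.01 and -1.67. *CLDN2*, which forms a cation pore in the proximal tubule, went the other way. Its level was 1.46 RPKM in si-Control, 2.65 with si-HOIL-1#1 and 6.19 with si-HOIL-1#2, from 185, 369 and 773 reads. It was highest with si-HOIL-1#2, at 425% (361 to 501) of control, and stood at 182% (152 to 218) with si-HOIL-1#1. Its log2 ratios were 0.57 and 1.55, past the 2-fold limit with si-HOIL-1#2.

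*CLDN1* and *CLDN11* were lower, while the summed level of the other claudins stayed near its control value. Those others thus made up a larger share of the family sum, without moving together. The level of *CLDN1* was 28.4 times that of *CLDN12* in si-Control, 11.4 times with si-HOIL-1#1 and 10.02 times with si-HOIL-1#2. *CLDN12* made up 2.67% of the family sum in si-Control, 6.09% with si-HOIL-1#1 and 7.04% with si-HOIL-1#2, and *CLDN2* 0.145%, 0.594% and 1.78%. *CLDN15*, a cation pore former, was at 3.52, 2.24 and 2.87 RPKM, with log2 ratios of -0.48 and -0.23. *CLDN23* was at 1.47, 1.05 and 2.44 RPKM, with log2 ratios of -0.27 and 0.48. *CLDN16*, a claudin of magnesium reabsorption in the thick ascending limb that lies 65425 bases from *CLDN1*, was chosen after its values were seen and did not pass the expression limit. It was at 1.498, 0.483 and 0.597 RPKM, from 181, 64 and 71 reads, and on those reads it was also over 2-fold lower, at 32.3% (23.9 to 43.2) and 39.9% (29.9 to 52.7) of control.

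**Figure D4:**
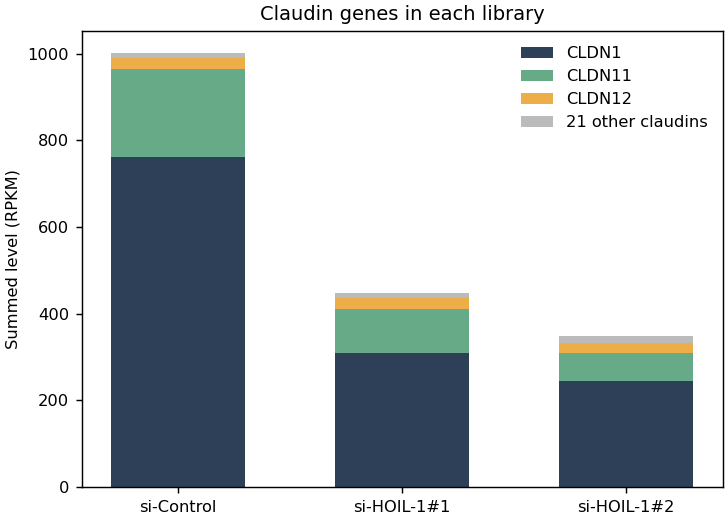
Stacked bars of the summed RPKM of 24 claudin genes in each of the 3 libraries, split into *CLDN1*, *CLDN11*, *CLDN12* and 21 others. The sum is 1002 RPKM in si-Control, 447 with si-HOIL-1#1 and 348 with si-HOIL-1#2, and *CLDN1* is the largest piece of every bar.

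Other genes of the junction were taken from lists of genes grouped by role. Of 12 genes listed as other membrane proteins of the tight junction 1 was compared, *MARVELD1*, of the MARVEL family. Whether its protein sits at the junction was not examined. It was at 10.2 RPKM in si-Control, 18.5 with si-HOIL-1#1 and 16.3 with si-HOIL-1#2, with log2 ratios of 0.80 and 0.63. It was therefore at least 1.5-fold higher with both siRNAs, as were 7.47% of all compared genes, and opposite to *OCLN*. *LSR*, which encodes angulin-1 of tricellular contacts, was at 0.999, 1.30 and 0.544 RPKM, and *BVES* was at 0.893, 0.649 and 1.21 RPKM, both under the expression limit. *CXADR*, which encodes an adhesion protein that also serves as a virus receptor, was listed at 0 in all 3 libraries.

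Of 22 other scaffold and polarity genes 17 were compared, with median ratios of -0.05 and 0.06. With 1 RPKM added, none was 2-fold different with both siRNAs. Among the compared genes, on reads alone *PATJ* was over 2-fold lower with both, at 45.4% (40.5 to 50.9) and 45.6% (40.5 to 51.3) of control. Its levels were 2.92 RPKM in si-Control, 1.33 with si-HOIL-1#1 and 1.33 with si-HOIL-1#2. Under the expression limit, *MAGI1* (486, 253 and 193 reads) and *MAGI2* (98, 35 and 19 reads) were also over 2-fold lower on reads with both siRNAs. *TJP3*, also under it, was over 2-fold higher, on 2, 9 and 4 reads. The share of all genes past 2-fold on reads was not computed. At 1.5-fold with both siRNAs and 1 RPKM added, 3 compared genes were lower (*PARD3*, *PATJ* and *ARHGEF2*) and 2 were higher (*YBX3* and *AMOTL1*), beside 6.24% and 7.47% of all compared genes. *YBX3*, whose product ZONAB binds ZO-1 and also acts in the nucleus, was at 140.4 RPKM in si-Control, 237 with si-HOIL-1#1 and 232 with si-HOIL-1#2. *ARHGEF2*, whose product GEF-H1 activates RhoA and is held at the junction by cingulin, was at 61.9, 39.1 and 34.7 RPKM. The silenced libraries were thus above the control for *YBX3*, with log2 ratios of 0.75 and 0.72, and below it for *ARHGEF2*, with -0.65 and -0.82. *AMOTL2*, an angiomotin-like scaffold, was at 36.1, 39.5 and 41.5 RPKM. *PARD3*, a core polarity scaffold named after its values were seen, was at 45.7, 28.4 and 29.1 RPKM, with log2 ratios of -0.67 and -0.63.

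**Figure D5:**
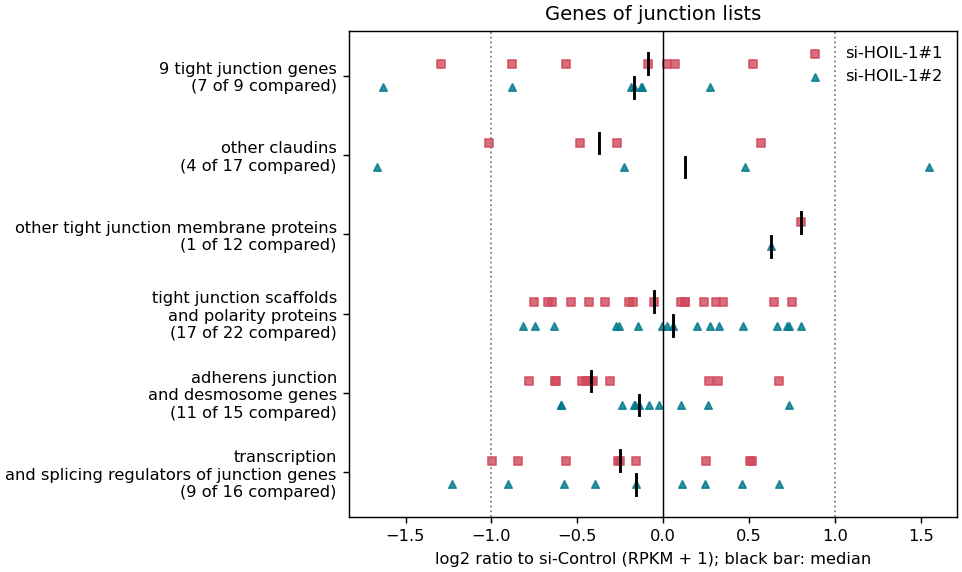
Log2 ratio of RPKM + 1 against si-Control (x axis) for each compared gene of the gene lists, with 1 symbol per gene and siRNA, black bars at list medians and dotted lines at the 2-fold limits. The 9 tight junction genes, of which 7 were compared, have medians of -0.09 and -0.17.

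Promoter sequence is shown as context for the genes whose levels differed most. RefSeq windows on GRCh38.p14, each 300 bases long and spanning a transcription start, were at hand for 8 of the 9 genes, with 13 windows in all. They were searched on both strands for the E-box CACCTG or CAGGTG, which SNAIL and ZEB factors bind, for the Grainyhead-like motif AACCGGTT and for the SP1 box GGGCGG or CCGCCC. Of 35116 promoters 20.6% held the E-box, 0.134% the Grainyhead-like motif and 45.0% the SP1 box. Of the 8 genes, counting a match in any of a gene's windows, 3 held the E-box (*CLDN7*, *OCLN* and *TJP1*), none the Grainyhead-like motif and 7 the SP1 box. *CLDN7* and *OCLN* had 2 windows each and *TJP1* had 4, which gives a gene more places for a match. The counts per gene are therefore not in the same unit as the shares per promoter. The windows of *CLDN1* and *OCLN*, the genes at least 1.5-fold lower with both siRNAs, and of *CLDN7*, which held the most E-boxes, are shown 5′ to 3′ on the strand of the gene with E-boxes and SP1 boxes in capitals.
CLDN1, minus strand, chr3:190322397-190322696: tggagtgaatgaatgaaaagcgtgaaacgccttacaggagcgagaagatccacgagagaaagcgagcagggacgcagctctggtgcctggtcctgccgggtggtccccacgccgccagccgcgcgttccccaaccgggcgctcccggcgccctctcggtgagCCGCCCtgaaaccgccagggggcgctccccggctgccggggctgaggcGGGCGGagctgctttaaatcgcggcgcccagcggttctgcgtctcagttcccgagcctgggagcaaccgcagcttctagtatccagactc
OCLN, plus strand, chr5:69492297-69492596: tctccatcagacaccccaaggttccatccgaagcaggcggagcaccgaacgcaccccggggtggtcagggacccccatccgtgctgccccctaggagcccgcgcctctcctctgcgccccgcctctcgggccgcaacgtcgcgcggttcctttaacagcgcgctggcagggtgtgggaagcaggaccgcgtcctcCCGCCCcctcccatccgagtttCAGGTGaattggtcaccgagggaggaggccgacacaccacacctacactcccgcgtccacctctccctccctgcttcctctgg
CLDN7, minus strand, chr17:7262429-7262728: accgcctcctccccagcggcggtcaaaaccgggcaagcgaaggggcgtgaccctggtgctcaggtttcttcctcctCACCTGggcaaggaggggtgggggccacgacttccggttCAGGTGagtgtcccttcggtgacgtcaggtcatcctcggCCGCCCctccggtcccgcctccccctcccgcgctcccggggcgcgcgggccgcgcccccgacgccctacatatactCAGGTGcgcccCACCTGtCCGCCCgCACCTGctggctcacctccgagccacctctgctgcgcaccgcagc
The *CLDN1* window held 2 SP1 boxes and no E-box. The *OCLN* window shown, the first of 2, held 1 E-box, at base 218 of 300, and the other, at chr5:69492540-69492839, held 2. The *CLDN7* window shown, the second of 2, held 5, and the other held none. These matches are letters in a window, and binding of a factor was not measured.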

How the data were processed

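RNA of 3 Caki-1 libraries was sequenced after removal of ribosomal RNA. Per the labels, the kit kept strand and the reads were paired. The submitters' processing notes name Trimmomatic, FastQC, TopHat2, HTSeq and the hg19 build. The values the authors deposited were read as RPKM, 1 per gene and library. The table also held the authors' comparison columns (values, fold changes, p-values and q-values), which were not used. The members and gene lists were chosen with earlier results of these data known.

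Ratios were log2 of RPKM + 1 (pseudocount 1) where the 3 libraries averaged 1 RPKM or more. With 1 library per condition and RPKM in place of counts, no count test was run and limits of 2-fold and 1.5-fold were used. Whole reads were recovered from the smallest values of short genes (up to 200 nt), with a tolerance of 0.001 reads. Of those values 98.98% were whole in si-Control, 99.48% with si-HOIL-1#1 and 99.54% with si-HOIL-1#2. Intervals of read ratios were exact (Clopper-Pearson, 95%). Named genes were the 9 members, listed genes at least 2-fold different in 1 direction with both siRNAs, the 3 most abundant of each list, and the 3 genes nearest to *CLDN1*. Genes at 1.5-fold and others stated as such were chosen after their values were seen. Transcripts were the longest protein-coding GENCODE transcript of each gene, and promoters came from RefSeq on another build than the table, so no coordinates were carried between them. Protein features were not analysed here, and some genes that the rule names are not reported here. Steps were tested on simulated data. The software was matplotlib 3.10.9, scipy 1.17.1, Python 3.11.15, pandas 2.3.3 and numpy 2.4.6. Alternatives were other pseudocounts, filters, scalings and fold limits.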

Additional observations from a re-analysis of the deposited data

How the results depend on the processing

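No paired analysis was possible because 1 library stood for each condition, and for the same reason no replicate could be left out. The count of tight junction genes lower with both siRNAs was 1 (*CLDN1*) as reported and 2 (*CLDN1* and *OCLN*) with a limit of 1.5-fold or a pseudocount of 0.1 RPKM. Of 90 ratios of the tight junction genes under other settings, 78 moved by no more than 0.5 of the width of the gene's counting interval and 12 moved by more, among them 6 of *OCLN*. None of the called ratios reversed, and 1 small ratio changed sign (*CLDN12* with si-HOIL-1#1, -0.032 with equal total RPKM). The median of the tight junction genes with si-HOIL-1#1, -0.09 as reported, was -0.27 with a mean of at least 5 RPKM, -0.017 without a filter and -0.038 with a pseudocount of 5 RPKM. Medians of the other lists, given for si-HOIL-1#1 and then si-HOIL-1#2, moved most with the filter. Without a filter they were -0.307 and -0.026 for adherens junction and desmosome genes, 0.033 and 0.027 for other membrane proteins and -0.090 and 0.00011 for transcription regulators. The median of other claudins was -0.00145 with si-HOIL-1#1 without a filter. With a mean of at least 5 RPKM *CLDN11* alone was left of that list, and its own ratios, -1.01 and -1.67, stood as the median. The median of scaffold and polarity genes with si-HOIL-1#1 turned from -0.05 to 0.04 with a mean of at least 5 RPKM. A pseudocount of 5 RPKM gave 0.63 and 0.49 for other membrane proteins, where *MARVELD1* alone was compared. The settings' own construction, more or fewer genes or a larger added value, sets these shifts. Depth limited *CLDN4*, *CLDN7* and *CGN*, whose intervals held equality. Those of *MARVELD2* did too, but on recovered reads that may be too few.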

Other observations

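Genes of the adherens junction and desmosome, which hold neighbouring cells together below the tight junction, had compared members in both directions. Of 15 genes 11 were compared, with median log2 ratios of -0.42 with si-HOIL-1#1 and -0.14 with si-HOIL-1#2. *PKP2*, a desmosomal plaque gene, was at least 1.5-fold lower with both siRNAs, at 3.83, 1.82 and 2.19 RPKM in si-Control, si-HOIL-1#1 and si-HOIL-1#2. *VCL*, which encodes vinculin, a link from adhesion sites to actin, was at least 1.5-fold higher with both, at 29.1, 47.1 and 49.1 RPKM. Each was 1 of the 11, beside 6.24% lower and 7.47% higher over all compared genes. *CTNNA1*, which encodes alpha-catenin, was at 139, 112 and 124 RPKM, and *CTNNB1*, which encodes beta-catenin, was at 71.3, 85.9 and 85.6 RPKM. *CDH1*, which encodes E-cadherin, was near 0 in all 3 libraries, and *CDH2*, which encodes N-cadherin, was at 24.5, 17.7 and 15.9 RPKM.

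Of 16 transcription regulators of epithelial junction genes 9 were compared, with medians of -0.25 and -0.16. With 1 RPKM added, none was at least 1.5-fold different in 1 direction with both siRNAs, beside 6.24% lower and 7.47% higher over all compared genes. On reads alone *ZEB1* was 2.29-fold lower with si-HOIL-1#1 and 1.59-fold lower with si-HOIL-1#2. *ZEB2* was 1.57-fold and 2.77-fold lower on reads, so both genes passed 1.5-fold there. The share of all genes past 1.5-fold on reads was not computed. *ZEB1*, which encodes a repressor of epithelial genes, was at 7.75, 3.38 and 4.87 RPKM, with log2 ratios of -0.998 and -0.576, the second just short of the limit. *ZEB2*, a related repressor, was at 8.72, 5.56 and 3.15 RPKM, with log2 ratios of -0.57 and -1.23. *SNAI1*, which encodes the repressor SNAIL, was at 5.63, 8.39 and 9.58 RPKM, with log2 ratios of 0.50 and 0.68, and *SNAI2* was at 3.83, 3.07 and 1.59 RPKM, with -0.25 and -0.90. *ELF3*, an epithelial factor, was at 21.0, 18.7 and 22.7 RPKM. *KLF4* was at 9.01, 10.9 and 7.96 RPKM. Genes other than the most abundant ones of each list were chosen after their values were seen.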
